A study of Mus musculus with 6 samples.

Results

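U1 is the small nuclear RNA (snRNA) that pairs with the 5′ splice site at the start of an intron and so opens the assembly of the spliceosome. The features described here are the RNAs of U1 size: genes of type snRNA in GENCODE M21 on GRCm38 whose start and end match a counted feature and whose length is 155 to 170 nt. Of 144 annotated genes that fit this rule, 47 had at least 1 read in a library, out of 1823 features listed in all. There were 4 with a U1 gene name (Rnu1a1, Rnu1b1, Rnu1b2 and Rnu1b6) and 43 with a provisional Gm symbol. Reads of snoRNA-sized RNA were counted in bone marrow cells, named in the design text as lineage-negative, that is, depleted of mature blood cells. The groups were 3 libraries of genotype Mat KO (here KO) and 3 of wild-type genotype (WT), and the series' title names the imprinted Dlk1-Gtl2 locus. Treatment, strain, age, sex, the deleted stretch and whether each library came from a different animal were not given in the sources used here. Hence p-values rest on the spread among 6 libraries, and that spread may be technical. Values by library are given in the order of replicates 1, 2 and 3.

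Cells carry U1 in a particle with a ring of Sm proteins and further proteins of its own. Its 5′ end pairs with the first bases of introns, and the particle also keeps transcripts from being cut and polyadenylated too early. Mice have a U1a and a U1b form that differ inside the stem-loops, and U1b is best known from embryonic and proliferating tissue. U1 genes exist as many near-identical copies and the genome also holds many decayed ones, so reads can match several copies equally well.

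The sequences are shown because the copies differ in places that decide how they can be told apart. They are the GENCODE M21 transcripts, written as DNA. The U1a gene Rnu1a1 (chr11:87422867-87423030, plus strand, in an intron of Tex14) is given with the 9 bases that pair with splice sites, ACTTACCTG at positions 3 to 11, and the Sm site, AATTTGTGG at positions 125 to 133, in capitals.
Rnu1a1: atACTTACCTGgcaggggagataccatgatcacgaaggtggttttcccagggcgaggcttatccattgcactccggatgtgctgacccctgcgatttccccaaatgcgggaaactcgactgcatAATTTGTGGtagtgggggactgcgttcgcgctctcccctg
The U1b gene Rnu1b1 (chr3:96359953-96360117, minus strand, in no other gene) is given with its differences from Rnu1a1 in capitals.
Rnu1b1: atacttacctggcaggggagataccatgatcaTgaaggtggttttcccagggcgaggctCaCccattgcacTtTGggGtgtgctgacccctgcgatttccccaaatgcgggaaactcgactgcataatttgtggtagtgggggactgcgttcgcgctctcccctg
The pair differed by 7 edits (95.8% identity), all before the last 87 bases. Rarer members differ near the 3′ end as well, and their last 30 bases follow, with differences from Rnu1a1 in capitals.
Rnu1a1, chr11:87423001-87423030, plus strand: agtgggggactgcgttcgcgctctcccctg
Gm23238, chr19:18732875-18732904, plus strand: agtgggggactgcgttcgTgctctcAcctg
Gm25189, chr2:117248405-117248434, plus strand: agtgggggactgcgttTgTgctctcccctT
Gm26110, chr1:171028100-171028129, plus strand: agtgggggactgTgttcgTgctctcccctT
Rnu1b6, chr3:96460024-96460053, minus strand: gtgggggaGctgcgttcgcgcGctcccctg
Gm23686, chr3:18177462-18177491, minus strand: agtgggggactAcgttcgcgctctcccctg

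The 14 most abundant members formed 1 level block. They were Rnu1a1, Rnu1b1, Rnu1b2 and 11 Gm copies, and each had between 31479 and 34165 reads over the 6 libraries, a ratio of 1.09 from lowest to highest. Together they held 90.6% of the reads of all 47 members. All 14 ended in the same 87 or more bases as Rnu1a1, although they have 6 different sequences. No other member shared more than 24 bases of that end, and the highest of these had 14126 reads. Within a library the 14 counts had a coefficient of variation of 2.01% to 3.21%, where counting error alone gives 1.22% to 1.496%, so the spread between copies was small but above counting error.

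Single edits in different places went with different levels. Gm24305 differs from Rnu1a1 by the substitution A26G, and Gm22513 by T60C, counted from 1 at the 5′ end of Rnu1a1. Both stayed in the block, at 1.03 and 1.02 times the level of Rnu1a1 per nucleotide. Gm24924, on chromosome 18, also has 1 edit, but it lies behind the first 152 bases and leaves only the last 11 shared. Its level per nucleotide was 0.434 times that of Rnu1a1. Rnu1b6 has the same first 144 of its 166 bases as Gm25890, a U1b-type copy of the block, and 2 edits after them, and it had 619 reads against 33003, a level 53.5-fold lower per nucleotide. Identity over the whole RNA did not order the levels in this way. Rnu1b6 had 98.2% identity to Rnu1b1 and Gm23238 had 93.3%, yet Gm23238 had 12915 reads. That pair is of unlike type, as Gm23238 is nearer to Rnu1a1, at 97.6% against 95.2% for Rnu1b6. Gm23686 had the same 97.6% identity to Rnu1a1 as Gm23238 and 107 reads. Gm23686 shared the last 18 bases with Rnu1a1 and Gm23238 only the last 4. Gm25704 kept the last 24 bases, the longest shared end outside the block, and had 33 reads. Its identity was only 81.7% to Rnu1b1 and 85.7% to Rnu1a1, so its level cannot be tied to the length of that end. The files give counts without the position of a read inside a feature, and how the authors assigned reads with several matches was not given in the sources used here, so whether these levels are of the copies themselves or of how reads were shared out was not tested. The split by the 3′ end was chosen after these values were seen.

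**Figure D1:**
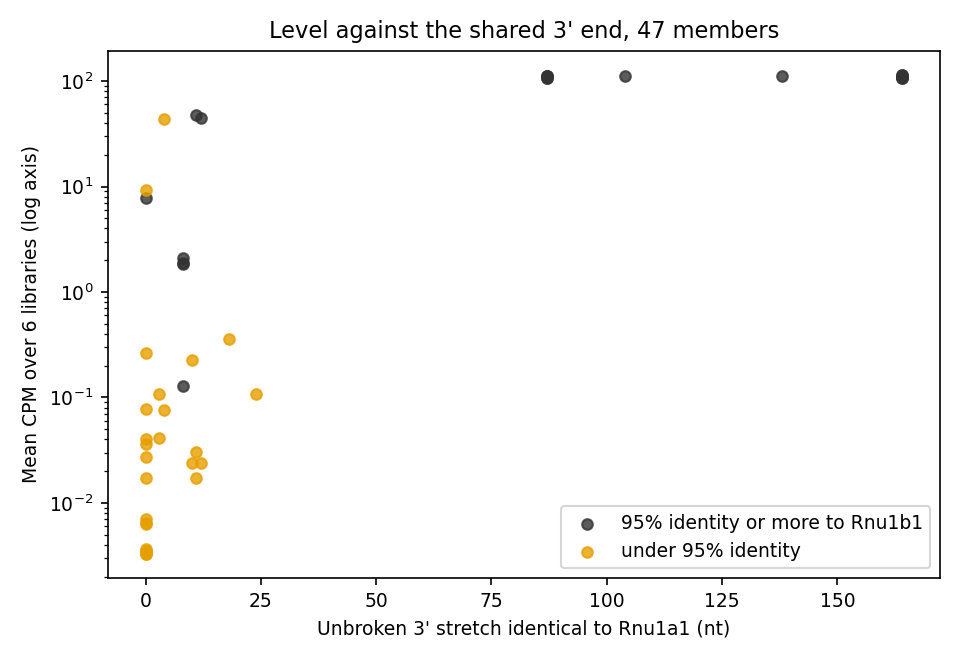
Mean level of each of the 47 members (CPM, counts per 1e6 counts of a library, log axis) against the length of the unbroken 3′ stretch identical to Rnu1a1 in nucleotides; black points have at least 95% identity to Rnu1b1 and orange points less. The 14 members with at least 87 shared bases sit at 1 level, and the other 33, with at most 24, spread over several powers of 10 below it.

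Both motifs were common among the members with reads and rare among the others. ACTTACCTG was present in 33 of the 47 members and AATTTGTGG in 34. Of the 97 annotated genes of this length without a read, 9 and 14 held them, and of 255 other GENCODE transcripts of the same length, 0 and 1. Neither motif occurred on the reverse strand in these sets, and they do not overlap each other. Among the members tested for a difference between genotypes, 24 of 25 held each motif. The one without either was Gm23511. The genes without a read had a median identity of 72.3% to Rnu1b1 and reached at most 88.5%, against a median of 92.2% for the members. Both motifs are stretches of Rnu1a1 itself, and copies close to it can share reads. These counts therefore cannot separate the motifs from likeness to U1 as a whole.

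Most of the members' reads fell to 3 groups of copies. On chromosome 12, 7 copies lie between 54696782 and 54738622 and held 45.6% of the members' reads. This cluster is on the chromosome of the Dlk1-Gtl2 locus but 54.7 Mb before Dlk1. On chromosome 3, 8 copies, among them Rnu1b1, Rnu1b2 and Rnu1b6, lie between 96328425 and 96488893 and held 25.98%. On chromosome 11, Rnu1a1 and Gm22068 both lie in an intron of Tex14, on its strand, and held 12.8%. These shares follow the number of copies in the level block and do not show which gene was transcribed. In all, 19 of 47 members overlap another gene. Where that gene lies on the same strand, as Tex14 does for Rnu1a1, counts cannot tell its reads from those of the member. Where it lies only on the opposite strand, as for Rnu1b6, they cannot be told apart either, as no strand setting was stated.

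The libraries were deep and differed in ways that touch the comparison of genotypes. Each held 45398303 to 53299322 counts. Reads of the 45S pre-rRNA took 3.26% to 3.88% of the counts (KO) and 4.59% to 5.10% (WT), with no overlap. Non-snRNA features over 130 nt had a median log2 level of -0.60 in KO replicate 2 and -0.25 in KO replicate 3, relative to the mean of the 6 libraries. In the other 4 it was 0.13 to 0.27. The 25 U1-length members tested below had -0.18, -0.10 and 0.02 (KO) and 0.18, 0.04 and 0.06 (WT). They were thus lowest in KO replicate 1, where the long features had 0.14. The part of the 45S share or of feature length in the results on U1 was not tested. Blood cell types could be read only through miRNA features: all 7 markers of primitive haematopoietic cells had reads, with a summed level of 61.6 to 81.2 CPM (KO) and 40.1 to 94.7 CPM (WT). The summed levels of the erythroid (3 features with reads for 5 listed genes, as Mir451a and Mir451b share a feature and Mir486b was at 0), myeloid (3 of 3), B lymphoid (1 of 1), T lymphoid (2 of 2) and stromal (6 of 6) markers were 3.23 to 8.49, 15.9 to 23.5, 4.002 to 6.09, 9.28 to 24.3 and 2.23 to 6.81 CPM in the KO libraries. In the WT libraries they were 1.61 to 4.02, 9.83 to 21.6, 0.694 to 3.19, 8.59 to 16.1 and 1.07 to 3.66 CPM. No marker was called in the test described next, and their part in the U1 values was not tested. In such bulk samples fewer cells of a type and less RNA per cell cannot be told apart.

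The summed U1 level was lower on average in the KO libraries, by less than the test could separate from their spread. The 47 members together had 1403, 1516 and 1780 CPM (KO) and 1963, 1781 and 1772 CPM (WT). KO replicates 1 and 2 were the lowest, and KO replicate 3 lay between WT replicates 2 and 3, so the groups overlapped. With the TMM scaling factors of the test on single members, which set libraries to a common level of most features, the sums were 1485, 1584 and 1723 (KO) and 1906, 1743 and 1742 (WT) and did not overlap. The unscaled means were 1566 ± 194 and 1839 ± 108 CPM (SD, n = 3 each), and an exact two-sided permutation test on the summed CPM gave p = 0.2, where 0.1 is the floor for 3 libraries against 3. Entered as 1 feature in edgeR's quasi-likelihood test, the sum had a log2 fold change of KO over WT of -0.09 (SE 0.12), with a Benjamini-Hochberg adjusted p of 0.848 over 600 features. That table gave TMM factors of its own, with a median of all features at 0.01, so this value is not on the scale of the single members. With the factors of the test on single members, an alternative added after the data were seen, the sum was at -0.17 (SE 0.12, edgeR adjusted p of 0.746) and the median at -0.07. With library size in place of TMM it was -0.23, with a median of -0.14. With TMM factors of its own table, leaving out KO replicate 1 moved the sum to -0.01, WT replicate 1 to -0.04, WT replicate 2 to -0.15 and KO replicate 2 or 3 to -0.16. A fall of the sum was therefore not detectable against the spread of these libraries.

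**Figure D2:**
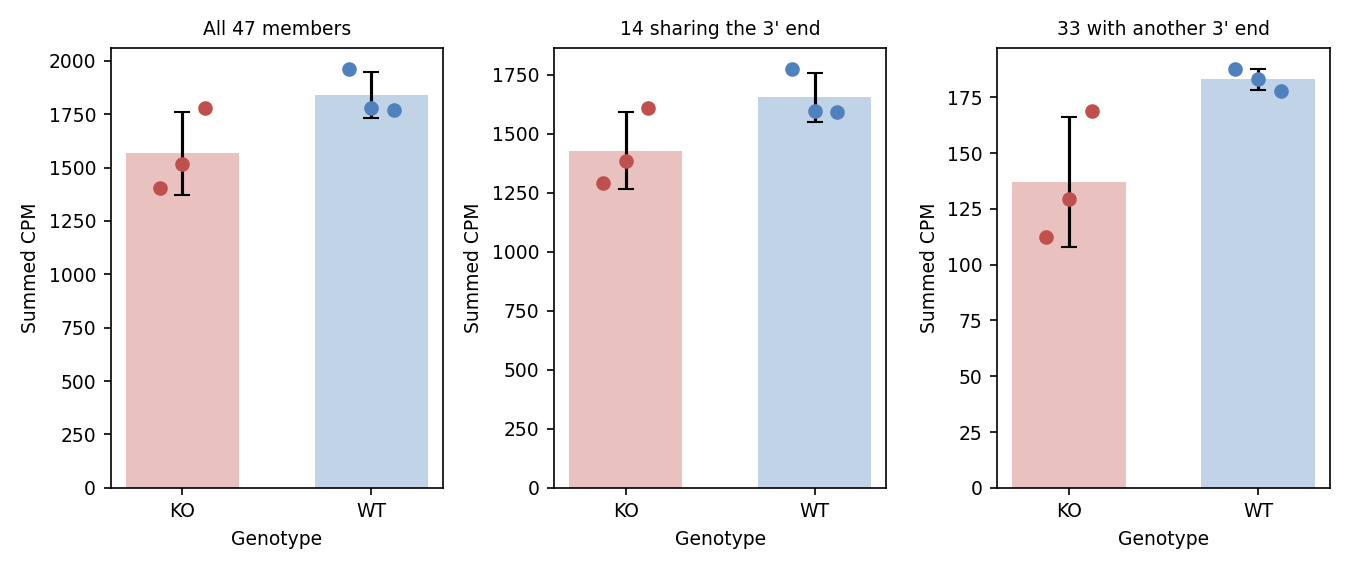
Summed CPM of all 47 members, of the 14 that share the 3′ end of Rnu1a1 and of the 33 with another 3′ end, by genotype; points are libraries (3 per genotype, left to right in replicate order), bars are means and error bars the SD. KO and WT libraries overlap in the first and the second panel and not in the third.

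The read counts of the U1a and U1b genes moved together from library to library. Rnu1a1 had 4394, 5112 and 5444 reads (KO) and 6716, 5072 and 5856 (WT), or 101 ± 12.5 and 118 ± 7.4 CPM (SD, n = 3 each). KO replicate 3 and WT replicate 2 overlap, at 115 and 112 CPM. Its log2 fold change was -0.15 with an SE of 0.16 (edgeR adjusted p = 0.780 over 624 features). Rnu1b1 had 4564, 5171 and 5743 reads (KO) and 6770, 5220 and 5964 (WT), with a log2 fold change of -0.13 with an SE of 0.16 (edgeR adjusted p = 0.803). Its twin of identical sequence, Rnu1b2, had 4307, 4960 and 5243 reads (KO) and 6407, 5093 and 5469 (WT) (log2 fold change -0.14, SE 0.15). The ratio of Rnu1a1 to Rnu1b1 reads was 0.963, 0.989 and 0.948 (KO) and 0.992, 0.972 and 0.982 (WT). The means of this ratio, 0.966 ± 0.021 and 0.982 ± 0.010, did not separate the genotypes (exact two-sided permutation p = 0.3 on the log2 ratio). An even ratio in every library does not show equal amounts of U1a and U1b, since reads from the shared end can go to either. Such sharing could also keep the ratio even in both genotypes. The test on it therefore cannot show whether the balance of U1a and U1b differed between them.

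The other copies of the block had log2 fold changes between -0.18 and -0.12. The lowest was that of Gm25679 on chromosome 12, whose sequence is that of Rnu1a1, with 4608, 5183 and 5699 reads (KO) and 7193, 5467 and 6015 (WT). The closest to 0 was that of Gm22042 on chromosome 4, a U1b-type copy, at -0.12 with an SE of 0.15 (edgeR adjusted p = 0.813). Between them lay Gm22317 at -0.16, Gm22634 at -0.15, Gm23804 at -0.14 and Gm22614 at -0.15. The block is near-identical copies that can share reads, so its 14 estimates are not separate measurements, and the median of all tested features was -0.08.

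Of the 47 members, 25 passed the expression filter and none was called at an adjusted p of 0.05 by edgeR, where 0.160% of all 624 tested features were called. DESeq2 called none of the 25 either, and its smallest adjusted p among them was 0.143. At an unadjusted p under 0.05 edgeR had 4 of 25 (Rnu1b6, Gm25189, Gm26110 and Gm23511), against 6.41% of all tested features. All 4 were lower in the KO libraries, against 4.33% of all tested features in that direction, and none was higher, against 2.08%. DESeq2 also had 4 lower (all tested features 20 of 624), while RLE scaling gave 2 (18 of 624). Leaving out KO replicate 2 gave 2 of 26 (17 of 646), WT replicate 3 gave 2 (17 of 653) and WT replicate 1 gave 1 (9 of 641). All 25 estimates were below 0 (lower in KO), against 59.1% of all tested features. With RLE or library-size scaling it was again 25 of 25, against 297 and 401 of all 624. It was 22 of 26 tested without KO replicate 1 (all features 346 of 662). Without WT replicate 1 it was 21 of 25 (317 of 641), and without WT replicate 2 25 of 26 (338 of 644). The median log2 fold change of the 25 was -0.17, against -0.08 for all tested features. It was -0.04 without KO replicate 1 (all features -0.03), -0.03 without WT replicate 1 (all features 0.00348), -0.11 without WT replicate 3 (all features 0.05) and -0.09 without KO replicate 2 (all features 0.00666). With identical copies summed, 15 features were left, again with lower estimates and no call, and 2 had an unadjusted p under 0.05 by edgeR. All features were not counted in that setting. Only the shares of the main test, 59.1% lower and 6.41% with such a p, can stand beside these counts. The scaling moved the median of all tested features from -0.08 with TMM to 0.02 with RLE and -0.16 with library size, and that of the 25 to -0.07 and -0.23. In CPM all 3 WT libraries lay above all 3 KO libraries for 9 of the 25, against 12.5% of all tested features, and the reverse held for none, against 2.72%. With TMM-scaled CPM it was 10 of 25, against 11.1%. These counts include copies that can share reads.

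**Figure D3:**
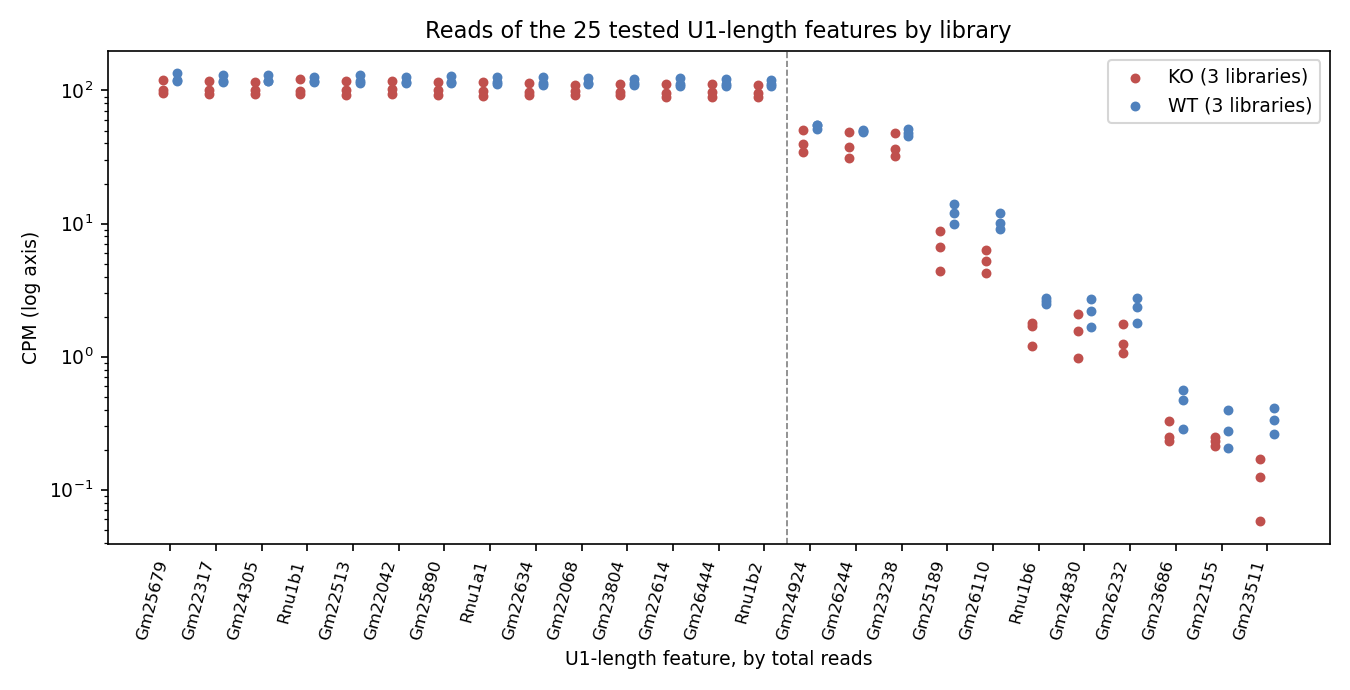
Level of the 25 tested members in each library (CPM, log axis), ordered by total reads, KO left and WT right of each position; the dashed line separates the 14 members that share the 3′ end of Rnu1a1 from the 11 that do not. The 14 form 1 level, with genotype means from 98.5 to 125 CPM. To the right of the line all WT points lie above all KO points in 7 of the 11 members, against 12.5% of all tested features. This split was chosen after the values were seen. Rnu1b6 and Gm26232, which have the same sequence and can share reads, are both among the 7.

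The members outside the block had the lower estimates, from -0.25 to -1.47, with a median of -0.63 over 11 tested. Among the 11, Rnu1b6, Gm24830 and Gm26232 have the same sequence and can share reads, and the split was chosen after these values were seen. Low estimates also occurred in other snRNA features. The 40 tested had a median of -0.28 and a range from -1.60 to 0.14, and the 2 of U6 length had a median of -1.03. The 3 copies at an intermediate level, named after their values were seen, were Gm24924 and Gm26244 in introns of Ss18 and Rock1 on chromosome 18 and Gm23238 on chromosome 19, opposite an exon of a lincRNA. Gm24924 had 1675, 2045 and 2379 reads (KO) and 2941, 2490 and 2596 (WT), and Gm23238 had 1565, 1893 and 2275 reads (KO) and 2540, 2332 and 2310 (WT). The genotypes did not overlap in CPM for Gm24924 and did for Gm23238. Their log2 fold changes were -0.32 (SE 0.19) and -0.25 (SE 0.20), with adjusted p of 0.730 and 0.736 by edgeR.

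Gm25189 and Gm26110, whose 3′ ends are printed with the sequences, had larger estimates without a call. Gm25189 (chr2:117248271-117248434, in no other gene) had 213, 348 and 415 reads (KO) and 744, 453 and 608 (WT). These are 6.63 ± 2.19 and 11.97 ± 1.99 CPM (SD, n = 3 each), and every WT library lay above every KO library. Its log2 fold change was -0.80 with an SE of 0.30 (edgeR adjusted p = 0.710). Gm26110 (chr1:171027965-171028129, in an intron of Fcgr4, a gene for an antibody receptor of myeloid cells, on its strand) had 207, 272 and 299 reads (KO) and 644, 414 and 516 (WT). That is 5.28 ± 1.03 against 10.5 ± 1.5 CPM, again without overlap, and a log2 fold change of -0.93 with an SE of 0.24 (edgeR unadjusted p = 0.00695, adjusted p = 0.542). Its reads could include those of the Fcgr4 transcript, and this was not tested.

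Rnu1b6 lies in an intron of the lincRNA Gm10685 on the opposite strand and differs from the block only near its 3′ end when set against Gm25890. It had 83, 62 and 84 reads (KO) and 133, 118 and 139 (WT), or 1.56 ± 0.32 and 2.61 ± 0.12 CPM without overlap, and a log2 fold change of -0.68 with an SE of 0.27 (edgeR adjusted p = 0.710). Gm24830 and Gm26232 have the same sequence as Rnu1b6 and had 558 and 545 reads in all, against its 619. Summed, the 3 copies had 4.52, 3.24 and 5.62 CPM (KO) and 7.07, 6.06 and 8.21 CPM (WT). The sums did not overlap, with p = 0.1 by the exact two-sided permutation test, its floor here.

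Gm23511 had the largest fold change among the tested members and few reads. It lies on chromosome 3, 48954722 to 48954885, in no other gene, and had 6, 3 and 8 reads (KO) and 22, 12 and 17 (WT). Its log2 fold change was -1.47 (SE 0.42, unadjusted p = 0.0102, adjusted p = 0.636 by edgeR). Gm23686, in an intron of the sterol hydroxylase gene Cyp7b1, had 16, 13 and 11 reads (KO) and 30, 13 and 24 (WT), and KO replicate 2 and WT replicate 2 both had 13. Gm22155 had 12, 12 and 10 reads (KO) and 11, 18 and 14 (WT). Counts this low carry a large counting error.

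The 22 members that did not pass the filter had 38 reads or fewer each and 236 together, 91 (KO) and 145 (WT). Of them 14 had more reads in the WT, 7 more in the KO libraries and 1 as many in both. Gm24136 was the highest, with 10, 1 and 4 reads (KO) and 10, 5 and 8 (WT). It differs from Rnu1b6 by 5 edits and had a level 16.3-fold lower per nucleotide. There were 14 members with fewer than 10 reads in all and 8 with fewer than 3.

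**Figure D4:**
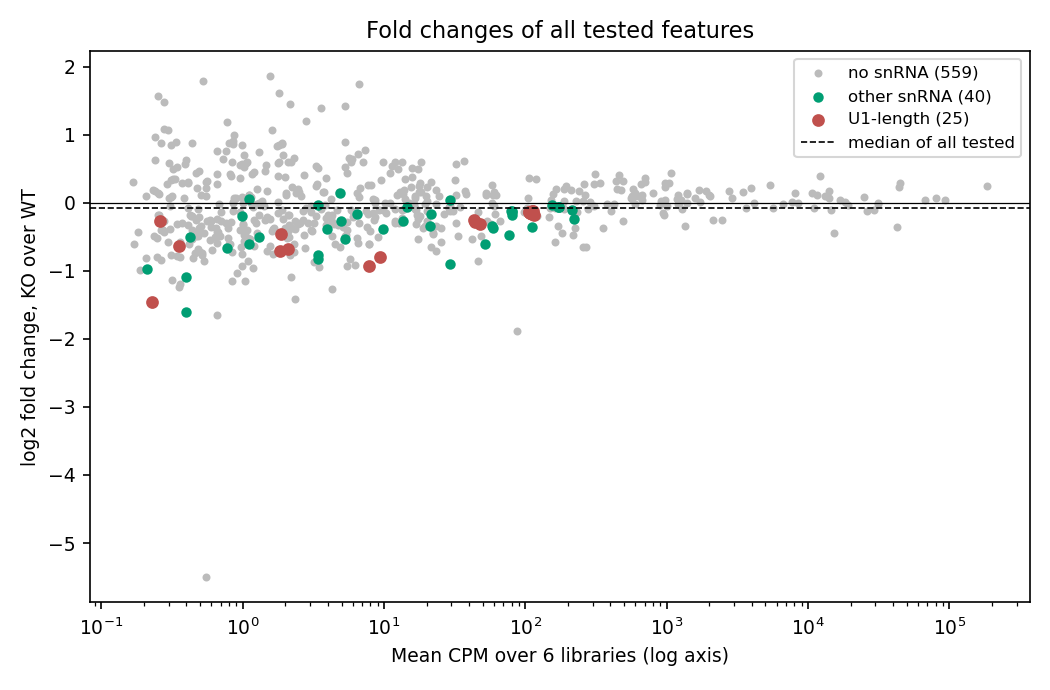
Log2 fold change of KO over WT (edgeR) against the mean CPM over 6 libraries (log axis) for the 624 tested features: grey for 559 features that are no snRNA, green for 40 other snRNA features and red for the 25 U1-length members. The dashed line is the median of all tested features, -0.08, and all red points lie below it.

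The rarer copies were also set against the block within each library. The 33 members with another 3′ end had 8.72%, 9.34% and 10.5% as many reads as the 14 of the block (KO) and 10.6%, 11.5% and 11.2% (WT). These ratios need no scaling between libraries and did not overlap, although KO replicate 3 and WT replicate 1 were close. They rest mostly on few copies: of the 47529 reads of the 33 members, Gm24924 held 14126, Gm26244 13145 and Gm23238 12915. As this split followed the values, its ratio was not tested. The adjusted p of its sums, given below, describe groups formed after their values were seen and test no claim made in advance. Split by identity to Rnu1b1, 26 members under 95% had 2.78%, 3.00% and 3.37% as many reads as the 21 at or above 95% (KO) and 3.35%, 3.67% and 3.47% (WT). These overlapped (exact two-sided permutation p = 0.2 on the log2 ratio, a difference of -0.20). Of the 16146 reads of the 26 members, Gm23238 alone held 12915 and Gm25189 2781, so this ratio mostly describes those copies. With the line at 98% identity, Rnu1a1 (95.8%) and the copies of its sequence fell below it, so copies of the block stood on both sides. That ratio therefore mostly set U1a-type against U1b-type copies that can share reads. It was 2.02, 2.04 and 2.06 (KO) and 2.10, 2.12 and 2.08 (WT), which did not overlap. The log2 difference was -0.04 with an exact permutation p of 0.1, its floor here. With the line at 90% the log2 difference was -0.38 (exact permutation p = 0.2). The sum of the 33 members was 137 ± 29 CPM (KO) and 183.002 ± 4.82 CPM (WT), and as 1 feature it had a log2 fold change of -0.28 with an SE of 0.19 (edgeR adjusted p = 0.739), against -0.08 (SE 0.12, adjusted p = 0.874) for the 14, in a table with TMM factors of its own. With the factors of the test on single members these were -0.36 (SE 0.19) and -0.15 (SE 0.12), both with an edgeR adjusted p of 0.743.

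Other RNAs of the splicing machinery were not called either. Outside U1 size, 302 snRNA features had reads and 40 were tested, of which none was called by edgeR or DESeq2 and 37 had estimates below 0, against 59.1% of all tested features. It was 31 with RLE scaling and 26 of 46 without KO replicate 2, where 317 of all 646 were below 0. At an unadjusted p under 0.05 edgeR had 3, all lower, against 4.33% of all tested features in that direction. DESeq2 had 2 lower, where 20 of all 624 tested features were. It was 6 with the replicate block (all features 26 of 624), 13 of 48 without KO replicate 1 (72 of 662) and 1 without WT replicate 1 (9 of 641). The median log2 fold change of the 40 snRNA features was -0.28. RLE scaling gave -0.18, and leaving out KO replicate 2 moved it to -0.02, WT replicate 3 to -0.10 and KO replicate 1 to -0.44. Rnu2-10, a U2 gene whose RNA pairs with the branch point, had 104, 42.2 and 75.7 CPM (KO) and 82.3, 88.3 and 91.9 CPM (WT), with KO replicates 1 and 2 at either extreme. Rnu12, the counterpart of U2 in the minor spliceosome, had 123, 15.1 and 48.4 CPM (KO) and 58.8, 67.0 and 147 CPM (WT). Rnu11, the counterpart of U1 in the minor spliceosome, had 2.93, 3.24 and 3.83 CPM (KO) and 5.05, 4.41 and 4.19 CPM (WT), without overlap (a log2 fold change of -0.39 with an SE of 0.23, edgeR adjusted p = 0.730). Rnu5g, of the U5 RNA that holds the exons, had 55.8, 36.7 and 56.1 CPM (KO) and 68.95, 52.1 and 76.0 CPM (WT). Rnu7, which acts on histone transcripts and not in splicing, had 165, 192 and 234 CPM (KO) and 262, 210 and 255 CPM (WT). KO replicate 2 was the lowest library for Rnu2-10, Rnu12 and Rnu5g. Among the U1-length members it was also the lowest for Rnu1b6, Gm24830, Gm26232 and Gm23511, while for Rnu1a1, Rnu1b1 and Rnu1b2 it was KO replicate 1.

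Set against other small RNAs of the same library, U1 reads gave no single direction. There were 219 snRNA features of 90 to 110 nt, the size of U6, with 308 to 1173 reads per library in all. The U1-length members had 133, 255 and 157 times as many reads (KO) and 89.2, 109 and 107 times as many (WT), without correction for length. The groups did not overlap, KO replicate 2 was the highest, and p was 0.1 by the exact two-sided permutation test on the log2 ratio, again its floor. The denominator was 9.28 ± 2.92 CPM (KO) and 18.3 ± 3.2 CPM (WT). Against the 7 non-snRNA features of 155 to 170 nt the ratio was 30.5, 96.1 and 64.5 (KO) and 40.7, 44.4 and 41.0 (WT) (p = 0.4 by the exact two-sided permutation test). With the range widened by 10 nt on each side it was 0.644, 0.865 and 0.848 (KO) and 0.946, 0.814 and 0.753 (WT), and the difference turned from higher to lower in the KO libraries.

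**Figure D5:**
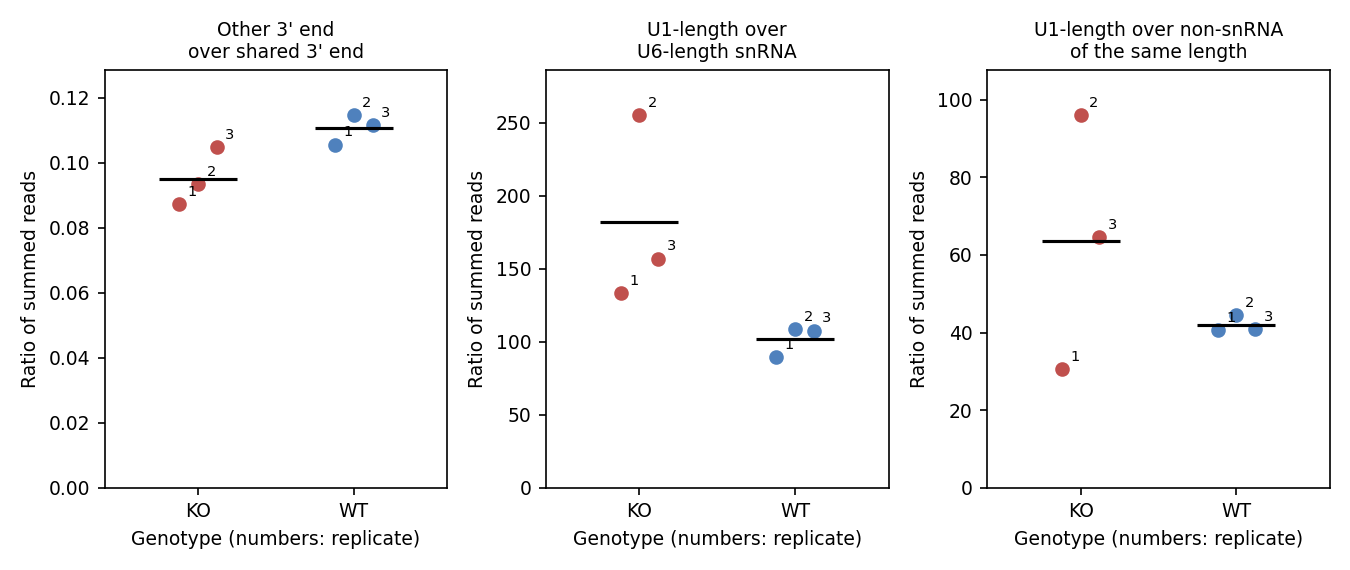
Ratios of summed reads within each library, by genotype: members with another 3′ end over those sharing the end of Rnu1a1, U1-length members over U6-length snRNA, and U1-length members over non-snRNA features of the same length; points are libraries numbered by replicate and lines are means. The first ratio is lower and the second higher in all KO than in all WT libraries, and in the third KO replicates 1 and 2 lie on either side of the WT libraries.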

How the data were processed

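Small RNA libraries of 3 KO and 3 WT samples were analysed, grouped by their titles. Per the labels' protocols, Trizol RNA went through an NEB small RNA kit, a gel cut sized for snoRNA inserts and a NovaSeq run. Per the submitters' processing notes, Trimmomatic 0.38, Bowtie2 2.3.4.1 and GRCm38 were used, while the counter, annotation, strand setting and handling of reads with several matches were not given in the sources used here. Counts are raw: the authors deposited read counts per feature, listing features with at least 1 read, and features absent from 1 library were taken as 0 there.

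Features were matched by position to GENCODE M21, whose transcripts gave the sequences. RefSeq (GRCm38.p6) has a gene at the same coordinates for 42 of the 47 members. Identity is over the columns of a global alignment (Biopython 1.88: match 1, mismatch -1, gap opening -2, extension -1). CPM is a count per 1e6 counts of its library. edgeR 4.0.16 (R 4.3.3, quasi-likelihood, TMM, default filter with minimum count 10 and minimum total count 15, no covariate) was run on all features, with Benjamini-Hochberg adjustment over all tested and a threshold of 0.05; standard errors are the log2 fold change over the square root of F. It was tested on simulated data first. DESeq2 1.42.0, other scalings and filters, a replicate block and leaving out each library were the alternatives. Members, lists and tests were chosen with earlier results of these data known. The text names every member with a Rnu1 symbol, the 10 others with the highest mean CPM, the 3 tested members with the largest fold change and any called, and other members as chosen after their values were seen. Counting PCR reads without molecular identifiers, the depth sets a counting error only.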

Additional observations from a re-analysis of the deposited data

How the results depend on the processing

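No U1-length member and no other snRNA feature was called under any alternative tried: RLE or library-size scaling, no filter or at least 50 counts in 3 libraries, DESeq2, the replicate block, identical copies summed (U1-length members only) and each library left out. The log2 fold change of the U1 sum was below 0 under each of these that was run for it (all but identical copies summed) and ran from -0.16 to -0.01 with 1 library left out. Over all features the count of calls, 1 in the main analysis, was 13 with no filter, 0 with the replicate block and 0 to 1 with 1 library left out, being 0 without KO replicate 3 or any one of the WT replicates. The ratio of U1-length members to same-length features, 0.45 higher in the KO libraries on the log2 scale, was -0.10 with the range widened by 10 nt; the cause was not tested. With 1 library left out this ratio ran from 0.08 to 0.91, that to U6-length features from 0.51 to 0.98, the summed share from -0.33 to -0.16, the ratio of Rnu1a1 to Rnu1b1 from -0.04 to -0.01, and that of members under to those over 95% identity from -0.27 to -0.14 (with the line at 90% and 98%, -0.38 and -0.04). Of the 17 named genes, 3 block copies changed sign when KO replicate 1 or WT replicate 1 was left out: Rnu1b1 ranged from -0.16 to 0.01, with 0.0146 and 0.00348 in those settings, Gm22042 from -0.12 to 0.0217, with 0.0184 and 0.0217, and Gm25890 from -0.15 to 0.0015, with 0.0015 and 0.000389.

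The titles give replicate numbers without saying whether they pair the libraries. Deviations from the genotype mean had correlations of -0.13, 0.40 and -0.36 between libraries of the same number. Between different numbers they ran from -0.46 to 0.59, the highest for KO replicate 1 with WT replicate 3. Deviations of 3 libraries from their own mean depend on each other, so these values cannot decide whether the numbers pair the libraries. With the replicate block the U1 sum had a log2 fold change of -0.10 (adjusted p = 0.805 by edgeR). With 3 libraries per genotype and members of under 100 reads, small differences could be missed.

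Added after the data were seen were the split by the 3′ end, the sums on either side of it, the sums with the scaling factors of the test on single members, and the sum without the 45S pre-rRNA feature, which was -0.09.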
